A study of Mus musculus with 6 samples.

Results

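Metallothioneins and zinc transporters were followed in neutrophils that had met Candida albicans, a yeast that must take zinc from its host. The members were 7 genes chosen by name from the 54532 genes of the table, namely the metallothioneins Mt1 and Mt2, the transcription factor Mtf1, the zinc importers Slc39a1 and Slc39a14, and the zinc exporters Slc30a1 and Slc30a7. All 7 were found in the table, and 6 passed the filter on low values and were tested. Mt2 was listed at 0 in every library. Neutrophils were taken from mouse bone marrow and enriched with anti-Ly-6G beads, and 3 cultures from wild-type (WT) and 3 from progranulin knockout (PGRN KO) mice, labelled C57BL/6J, were exposed to live C. albicans for 6 h. PGRN KO mice lack progranulin, the product of Grn, in every cell, and no uninfected library was analysed here. WT mice came from Chongqing Medical University and PGRN KO mice from the Jackson Laboratory, so genotype and source of the mice cannot be told apart. The sources do not give the age of the mice or how many stood behind each culture, so p-values measure the spread between these cultures, which may be technical.

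Zinc is withheld from fungi in an infected tissue, a form of nutritional immunity. Neutrophils release calprotectin, the dimer of S100A8 and S100A9, which binds zinc and manganese outside the cell. Inside cells, metallothioneins are small cysteine-rich proteins that bind zinc and copper. ZIP proteins (Slc39a genes) carry zinc into the cytosol, and ZnT proteins (Slc30a genes) carry it out of the cytosol, across the plasma membrane or into organelles. The zinc sensor MTF-1, product of Mtf1, binds metal response elements ahead of the metallothionein genes and of Slc30a1 when zinc in the cell is high.

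In PGRN KO neutrophils 3 of the 6 tested members were lower than in WT. These were the plasma membrane importer Slc39a1, the importer Slc39a14 and the plasma membrane exporter Slc30a1. As a ratio of mean FPKM (fragments corrected for gene length and sequencing depth), Slc30a1 changed most, by -55.8%, followed by Slc39a14 with -30.9% and Slc39a1 with -25.2%. No member was called higher. Mt1, Mtf1 and Slc30a7 did not pass the threshold, an adjusted p under 0.05 from limma over 14807 genes. By the same rule 17.9% of all tested genes were called, 9.95% as lower and 7.94% as higher. Median log2 fold change was -0.16 over the 6 tested members and 0.0026 over all tested genes. With plain totals of fragments these medians were -0.080 and 0.067, and with voom -0.094 and 0.12. A filter at a mean FPKM of 1, which leaves out Slc30a1, gave a median of -0.0066 over the other 5 members. In bulk RNA, fewer cells of a type and less RNA per cell cannot be told apart.

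Libraries were alike in depth. They held between 17087344 and 18821091 fragments on genes, recovered from FPKM and gene length. The 95% intervals below come from limma and reflect the spread between cultures. Grn, the targeted gene, had a mean of 165.3 FPKM in WT and 0.398 in PGRN KO. Scaling the libraries to their plain totals of fragments, in place of the authors' scaling, raises PGRN KO against WT by 0.12 (log2), and 2149 genes were then called higher and 934 lower, against 1175 and 1473. Neutrophil markers were abundant in every library, with a summed level of 66657 to 71236 FPKM over 10 genes in WT and 68533 to 78247 in PGRN KO. Of these 10, 2 were called lower and 1 higher, and with plain totals of fragments 0 lower and 3 higher. Among the other marker lists, the 5 immature neutrophil genes rose from a summed 128.7 to 143.8 FPKM in WT to 608.7 to 670.4 in PGRN KO, and all 5 were called higher. Of 8 monocyte and macrophage genes, 4 were called lower and 1 higher, with sums of 1007 to 1073 FPKM in WT and 913.9 to 1080 in PGRN KO. B and plasma cell (4 of 4 tested genes higher), basophil and mast cell (4 of 5) and erythroid genes (3 of 4) were raised, with sums of 430.2 to 444.7, 2.04 to 2.47 and 1.01 to 3.14 FPKM in WT against 2162 to 2455, 11.0 to 12.5 and 5.46 to 6.36 in PGRN KO. Of 5 T and NK cell genes 2 were tested and 1 was called higher. That gene, Nkg7, had a mean of 2.54 FPKM in WT and 7.79 in PGRN KO. Cd3d, the other tested gene, went from 0.433 to 0.278 FPKM and was not called. Sums over the list, 2.49 to 3.29 FPKM in WT and 7.50 to 8.67 in PGRN KO, came mostly from Nkg7. Cd3e and Cd3g were at 0 throughout. The part of these cells in the results on zinc genes was not tested.

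Metal response elements are the sequence that metallothionein genes and Slc30a1 share, so the stretches ahead of these 3 genes are shown, from RefSeq on GRCm38.p6, up to the first annotated base of RefSeq or GENCODE M21. Capitals mark the 7-base core, searched as TGCACNC and TGCGCNC on both strands, where N is any base. The stretches lie at chr8:94178839-94179081 for Mt1, chr8:94172368-94172617 for Mt2 and chr1:191906531-191906766 for Slc30a1, all on the plus strand, and each reads 5′ to 3′.
Mt1: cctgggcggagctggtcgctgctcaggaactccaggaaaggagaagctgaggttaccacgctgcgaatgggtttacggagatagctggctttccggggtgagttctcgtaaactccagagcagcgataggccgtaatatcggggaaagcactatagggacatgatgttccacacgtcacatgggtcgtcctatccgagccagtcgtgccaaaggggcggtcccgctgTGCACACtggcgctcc
Mt2: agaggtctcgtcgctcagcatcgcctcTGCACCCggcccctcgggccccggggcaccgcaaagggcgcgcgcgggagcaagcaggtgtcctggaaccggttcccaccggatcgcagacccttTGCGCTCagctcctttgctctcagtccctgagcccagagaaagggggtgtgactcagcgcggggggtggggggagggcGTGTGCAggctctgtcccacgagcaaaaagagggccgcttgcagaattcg
Slc30a1: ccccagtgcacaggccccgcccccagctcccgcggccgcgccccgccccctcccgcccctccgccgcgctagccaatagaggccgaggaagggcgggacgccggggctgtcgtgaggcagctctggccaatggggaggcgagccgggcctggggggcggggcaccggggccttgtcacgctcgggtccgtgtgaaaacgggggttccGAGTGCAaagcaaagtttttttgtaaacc
Windows of 250 bases ahead of the RefSeq start were found for 6 of the 7 members, all except Slc39a14. Mt2 had 3 cores there, Mt1 and Slc30a1 had 1 each, and Mtf1, Slc39a1 and Slc30a7 had none. Of 32851 such windows in the whole table, 21.4% held at least 1 core and 1.26% at least 3. Annotated starts of Mt1 and Mt2 differ between transcripts, and more cores lie between the most upstream and the most downstream start. For Mt1 there were 4 in 159 bases, a number reached in the first 159 bases of 0.0472% of GENCODE M21 transcripts. These sites, each printed on the plus strand with the core in capitals, stood 150, 132, 68 and 54 bases ahead of the downstream start.
Mt1 site at 150: gctcTGCACTCcgcc
Mt1 site at 132: aaagTGCGCTCggct
Mt1 site at 68: tgctGGGTGCAaacc
Mt1 site at 54: ccttTGCGCCCggac
For Mt2 there were 3 cores in 196 bases, a number reached by 0.409% of transcripts over the same length. A match to these letters is a description and no measure of binding by MTF-1. The element was searched because metallothionein genes are known to carry it, so the shares given here are no test.

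Mt1 (ENSMUSG00000031765, chromosome 8 from 94179082 to 94180327) is the metallothionein that was measured. Its FPKM was 10.7, 11.2 and 10.9 in WT against 11.8, 11.0 and 13.2 in PGRN KO. PGRN KO replicate 6 was the highest of the 6, and the genotypes overlapped, since PGRN KO replicate 5 lay below WT replicate 2. Mean FPKM was 10.9 ± 0.267 in WT against 12.0 ± 1.09 in PGRN KO (SD, n = 3 each), which rests on 692 and 835 fragments. On the log2 scale the difference was 0.12 (standard error 0.069, 95% interval -0.044 to 0.29, adjusted p = 0.289), measured on log2(FPKM + 1) as are all fold changes here unless another scale is named. With plain totals of fragments it was 0.23 (adjusted p = 0.0522) and with voom on the recovered fragments 0.25 (adjusted p = 0.0789). Without PGRN KO replicate 6 it was 0.056. Mt1 did not pass the threshold under any setting tried. The gene length in the table, 1246 bases, counts every annotated exon of Mt1, while the shortest of its 3 annotated transcripts has 549 bases once spliced. If all fragments came from that transcript, the level would be 24.8 FPKM in WT and 27.2 in PGRN KO.

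Mt2 (ENSMUSG00000031762, chromosome 8 from 94172664 to 94173568), the other widely expressed metallothionein, was listed at an FPKM of 0 in all 6 libraries. An antisense gene, Gm45774, overlaps it on the minus strand, and 432 of the 588 exonic bases of Mt2 (73.5%) lie in the exon of Gm45774. Gm45774 was listed at 0 in all 6 libraries as well. The sources used here do not say whether fragments were counted by strand, and without strand reads from a gene and its antisense partner cannot be told apart. Among 634 protein-coding genes with at least 50% of their exonic bases shared with other genes, 332 (52.4%) were at 0 in every library, against 6723 of 21394 (31.4%) with less shared sequence. Overlaps on either strand were counted together there, so antisense pairs were not looked at on their own. The part of the overlap in the 0 of Mt2 was not tested, and no level or fold change is given for it. Mt3 and Mt4, the metallothioneins of brain and stratified epithelium, were also listed at 0 throughout. Of the genes starting within 200 kb of Mt1, Nudt21, a subunit of the mRNA 3′ end processing machinery, was called higher (log2 fold change 0.28, adjusted p = 0.0296), while Nup93, the nearest expressed coding neighbour, had a log2 fold change of 0.22 (adjusted p = 0.108).

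**Figure D1:**
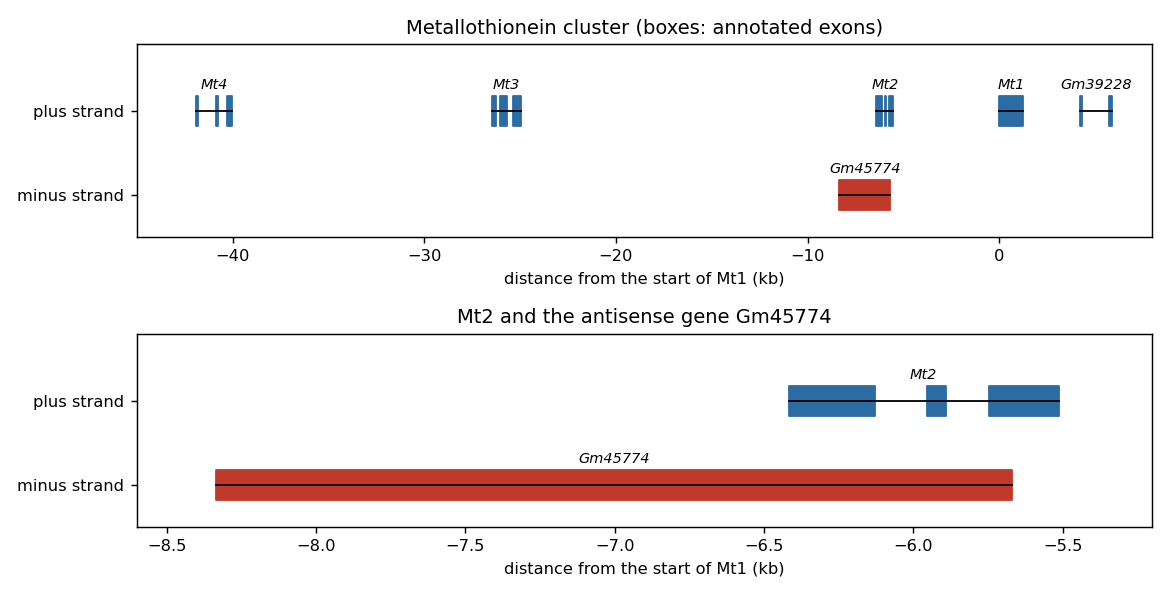
Annotated exons (boxes) of the metallothionein cluster by strand, against distance in kb from the start of Mt1, with an enlarged view of Mt2. The exon of the antisense gene Gm45774 (red) covers 432 of the 588 exonic bases of Mt2, and both genes were listed at 0 in all 6 libraries.

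Mtf1 (ENSMUSG00000028890, chromosome 4 from 124802104 to 124849800), which encodes the zinc sensor, did not pass the threshold. Its FPKM was 2.62, 2.40 and 2.88 in WT and 2.84, 2.45 and 2.56 in PGRN KO libraries, so the ranges overlapped. Its log2 fold change was -0.0066 (standard error 0.079, 95% interval -0.19 to 0.18, adjusted p = 0.966). Its sign turned with the scaling, to 0.080 with plain totals of fragments and 0.11 with voom, and no setting called it.

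Slc39a1 (ENSMUSG00000052310, chromosome 3 from 90248172 to 90253612) encodes ZIP1, which takes up zinc at the plasma membrane. It was the most abundant member. Its FPKM was 58.3, 56.9 and 54.1 in WT against 43.6, 39.9 and 43.1 in PGRN KO. Every PGRN KO library was below every WT library. Means were 56.4 ± 2.12 and 42.2 ± 2.00 FPKM (SD, n = 3 each), from 6776 and 5558 fragments. This amounts to a log2 fold change of -0.41 (SE 0.052, adjusted p = 0.00364). It was called in each of the 6 fits that left out 1 library, with values of -0.44 to -0.37, and in each of the 10 other alternatives, at -0.29 with plain totals of fragments.

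Slc39a14 (ENSMUSG00000022094, chromosome 14 from 70303469 to 70351425) encodes ZIP14, an importer of zinc, manganese and iron that inflammation raises in the liver. Its FPKM was 1.87, 1.56 and 1.66 in WT against 1.29, 1.11 and 1.12 in PGRN KO. The genotypes did not overlap. Means were 1.70 ± 0.157 and 1.17 ± 0.102 FPKM (SD, n = 3 each), from 910 and 688 fragments. Its adjusted p was 0.0333 at a log2 fold change of -0.31 (SE 0.076). This call was near the threshold. Leaving out each library in turn kept it once, without PGRN KO replicate 4 (adjusted p = 0.0466), while the other fits gave an adjusted p of 0.0642 (without WT replicate 2) to 0.11 (without PGRN KO replicate 5). It was also lost with plain totals of fragments (log2 fold change -0.24, adjusted p = 0.0666) and with no filter on low values (adjusted p = 0.0805). Voom called it, at -0.41 (adjusted p = 0.00618).

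Slc30a1 (ENSMUSG00000037434, chromosome 1 from 191906767 to 191913247) encodes ZnT1, which exports zinc across the plasma membrane, and is a target of MTF-1 with a core in the stretch shown above. Its FPKM was 0.864, 0.720 and 0.779 in WT against 0.321, 0.347 and 0.378 in PGRN KO. The highest PGRN KO library was well below the lowest WT library. These values came from 77, 63 and 70 fragments in WT and from 30, 33 and 39 in PGRN KO. Means were 0.788 ± 0.0725 and 0.348 ± 0.0290 FPKM (SD, n = 3 each). The fold change on log2(FPKM + 1) was -0.41 (SE 0.066, adjusted p = 0.00894), a scale that understates the change of a gene this low. It was -0.98 with a pseudocount of 0.1 and -1.04 with voom on the recovered fragments (adjusted p = 0.000913). Slc30a1 was called in all 6 fits that left out 1 library and in the 9 other alternatives that tested it, and it was below a filter at a mean FPKM of 1.

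Slc30a7 (ENSMUSG00000054414, chromosome 3 from 115938973 to 116007406) encodes ZnT7, which loads zinc into the Golgi. Its FPKM was 3.92, 4.06 and 4.09 in WT and 4.26, 4.13 and 3.98 in PGRN KO libraries. These ranges overlapped. Its log2 fold change was 0.030 (standard error 0.055, 95% interval -0.10 to 0.16, adjusted p = 0.76), and it was 0.16 with voom (adjusted p = 0.115). Of its 11116 exonic bases, 16.0% lie in exons of other genes, against 8.92% for Slc30a1, 8.09% for Mtf1 and none for Mt1, Slc39a1 or Slc39a14.

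**Figure D2:**
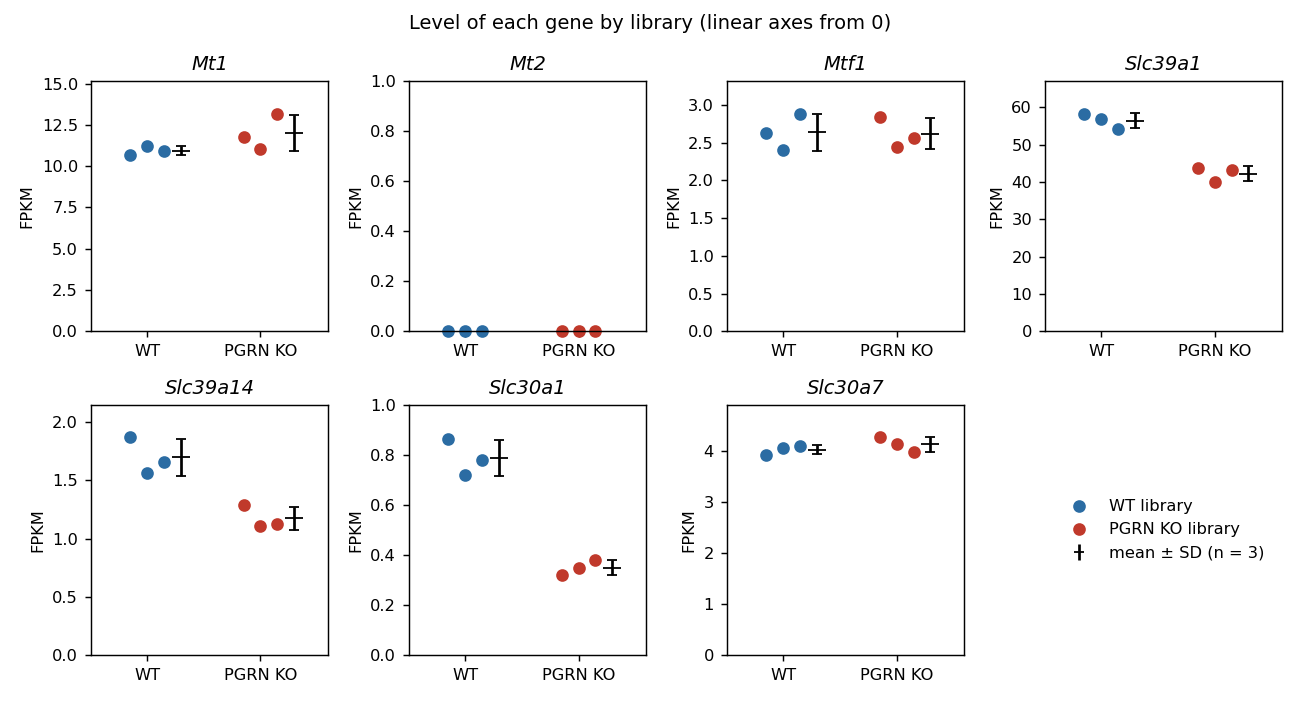
FPKM of each of the 7 members in the 3 WT (blue) and 3 PGRN KO (red) libraries, with the mean and SD beside them except for Mt2, which is listed at 0 in all 6. PGRN KO libraries lie below every WT library for Slc39a1, Slc39a14 and Slc30a1, and the genotypes overlap for Mt1, Mtf1 and Slc30a7. How many of all tested genes separate in this way was not counted, while 17.9% of all tested genes were called. Separation alone, with 3 libraries a genotype, gives an exact permutation p of 0.1 at the smallest.

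The order of levels, set per length in FPKM, was the same in both genotypes. It ran from Slc39a1 through Mt1, Slc30a7, Mtf1 and Slc39a14 to Slc30a1. No neighbours among these tested members had overlapping ranges over the 3 libraries of a genotype. Mt2, listed at 0, was not ranked. Slc39a1 was 5.16 times the level of Mt1 in WT and 3.52 times in PGRN KO. Slc39a14 was 2.15 times the level of Slc30a1 in WT and 3.37 times in PGRN KO. At the length of its shortest transcript Mt1, with 24.8 FPKM in WT, would still lie below Slc39a1 and above Slc30a7. Measured against all tested genes, Slc39a1 had a higher mean FPKM than 93.5% and Slc30a1 than 28.2%.

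Ratios within a library do not depend on its scaling. The 3 ratios given here share Slc30a1 as the denominator, so each contains the lower level of Slc30a1 already described, and they are given as a description. The ratio of Mt1 to Slc30a1 was 12.4, 15.6 and 14.0 in WT against 36.8, 31.9 and 34.9 in PGRN KO. Both genes are targets of MTF-1, and their ratio was higher in every PGRN KO library than in any WT library, a difference of 1.31 on the log2 scale. The ratio of Slc39a1 to Slc30a1, the main importer to the plasma membrane exporter, was 67.4, 79.0 and 69.5 in WT and 136.1, 115.2 and 114.0 in PGRN KO, a difference of 0.76. The ratio of Slc39a14 to Slc30a1 was 2.16, 2.17 and 2.13 in WT and 4.03, 3.19 and 2.97 in PGRN KO, a difference of 0.64.

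Among all ZIP and ZnT genes, Slc39a1 dominated the importers. It made up 58.7% to 59.4% of the summed ZIP level in WT libraries and 52.4% to 55.6% in PGRN KO libraries. The summed ZIP level was 91.6 to 98.2 FPKM in WT and 76.2 to 78.9 in PGRN KO, and the summed ZnT level was 20.6 to 22.7 and 20.1 to 21.7. Of 14 ZIP genes 10 were tested, with 2 called lower (Slc39a1 and Slc39a14), 1 higher and 7 not past the threshold. Of 10 ZnT genes 6 were tested, with Slc30a1 called lower and 5 not past the threshold. Together 4 of 16 tested genes were called, beside 17.9% of all tested genes (9.95% lower and 7.94% higher). Median log2 fold change was -0.19 for ZIP and 0.017 for ZnT genes. With plain totals of fragments the medians were -0.098 and 0.12, with 1 ZIP gene called lower in place of 2, and with voom they were -0.12 and 0.14. A filter at a mean FPKM of 1 gave 3 ZIP genes called lower. The ZnT median was -0.00031 with quantile normalization.

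The ZIP gene called higher was Slc39a11, which encodes a zinc importer of intracellular membranes. Its FPKM was 5.05, 4.98 and 4.61 in WT and 5.99, 6.00 and 5.88 in PGRN KO libraries, with no overlap. Its log2 fold change was 0.24 (adjusted p = 0.0271), a call lost whichever of the 6 libraries was left out (adjusted p 0.0542 to 0.0904). Slc39a4, the uptake carrier of the gut, was the next most abundant importer after Slc39a1, with 21.7 ± 0.432 FPKM in WT against 18.9 ± 1.07 in PGRN KO (SD, n = 3 each). The ranges did not overlap, yet at a log2 fold change of -0.19 it missed the threshold (adjusted p = 0.0523), and the value was -0.077 with plain totals of fragments. Slc39a4 was called in 1 of the 10 other settings (adjusted p = 0.0377) and in 1 of the 6 fits without 1 library (adjusted p = 0.0484). Slc39a7, which releases zinc from the endoplasmic reticulum, had -0.35 (adjusted p = 0.209), but 80.7% of its exonic bases lie in exons of another gene and its value is uncertain. Slc39a8, a zinc importer that NF-kB induces in monocytes, had 20 fragments in all WT libraries against 30 in PGRN KO and was not tested. Slc39a12, Slc30a2, Slc30a3, Slc30a8 and Slc30a10 were listed at 0 in all 6 libraries.

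**Figure D3:**
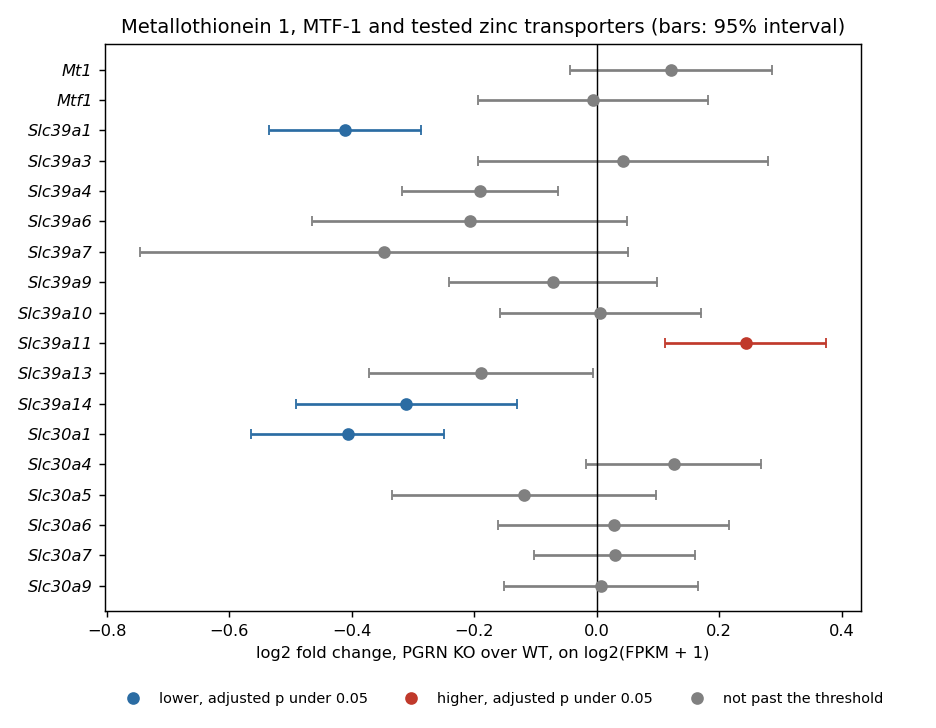
Log2 fold change of PGRN KO over WT on log2(FPKM + 1) for Mt1, Mtf1 and the 16 tested zinc transporter genes, with 95% intervals of limma. Slc39a1, Slc39a14 and Slc30a1 (blue) were called lower and Slc39a11 (red) higher, and the other genes (grey) did not pass the threshold.

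MTF-1 targets moved in both directions. Of 8 listed genes 7 were tested, with 2 called lower, 1 higher and 4 not past the threshold, and a median log2 fold change of 0.0059. The share called over all tested genes was 17.9%, with 9.95% lower and 7.94% higher. With plain totals of fragments, and with voom, 2 were called higher. Gclc, the catalytic subunit of the enzyme that limits glutathione synthesis, fell from 35.6 ± 1.46 to 21.3 ± 1.70 FPKM (log2 fold change -0.71, adjusted p = 0.00122; SD, n = 3 each). Slc30a1 was the other gene called lower. Csrp1, a LIM domain protein of the actin cytoskeleton, rose from 16.2 ± 1.08 to 19.7 ± 0.756 FPKM (log2 fold change 0.27, adjusted p = 0.0278), a call kept in 1 of the 6 fits without 1 library. Slc39a10, an importer that MTF-1 represses, had a log2 fold change of 0.0059 (adjusted p = 0.966) from 94 and 105 fragments.

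In the list of metal withholding genes 2 of 6 were called lower, none was called higher, and the median log2 fold change was -0.12. Among all tested genes 9.95% were called lower and 7.94% higher. The most abundant were the calprotectin subunits. S100a9 had 31333 ± 1130 FPKM in WT against 36371 ± 3050 in PGRN KO (SD, n = 3 each, adjusted p = 0.114), without overlap of the genotypes. S100a9 was called higher in 3 of the 10 other settings and in 1 of the 6 fits without 1 library. Those 3 were plain totals of fragments (log2 fold change 0.33, adjusted p = 0.0286), quantile normalization and voom. Voom also scaled to the totals of fragments. Quantile normalization gives equal ranks equal values, so it cannot decide on genes this abundant. Adjusted p reached 0.597 over the 10 settings. S100a8 had 17949 ± 878 FPKM in WT against 16846 ± 1156 in PGRN KO (adjusted p = 0.435), and the genotypes overlapped. Lcn2, which traps bacterial siderophores, and Ltf, the iron-binding lactoferrin, did not pass the threshold (adjusted p = 0.154 each). Slc11a1, which pumps iron and manganese out of the phagosome, fell from 256.2 ± 7.75 to 182.8 ± 7.08 FPKM (log2 fold change -0.48, adjusted p = 0.0013). Slc40a1, the iron exporter ferroportin, fell from 31.9 ± 1.07 to 24.7 ± 2.20 FPKM (log2 fold change -0.36, adjusted p = 0.0153), a call kept in 3 of the 6 fits without 1 library. The median of this list was 0.0041 with plain totals of fragments.

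Copper shares metallothionein with zinc, and 3 of 8 copper handling genes were called lower, none higher, with a median log2 fold change of -0.030. Over all tested genes the shares were 9.95% lower and 7.94% higher. With plain totals of fragments 2 were called lower and 1 higher, and the median was 0.044. Atp7a, the pump that carries copper into the secretory pathway and the phagosome, fell from 5.12 ± 0.0499 to 3.37 ± 0.177 FPKM (log2 fold change -0.49, adjusted p = 0.00282). Slc31a2, which governs copper release from endosomes, fell from 117.7 ± 3.50 to 87.3 ± 3.76 FPKM (log2 fold change -0.43, adjusted p = 0.00225). Sod1, the copper and zinc superoxide dismutase, fell from 17.6 ± 0.541 to 14.0 ± 1.05 FPKM (log2 fold change -0.31, adjusted p = 0.0181), a call kept in 4 of the 6 fits without 1 library and lost (adjusted p = 0.077) with plain totals of fragments. Slc31a1, the main copper importer, and Atox1, a copper chaperone, had log2 fold changes of 0.11 and -0.0094 and did not pass the threshold. Slc31a1 was called higher with plain totals of fragments (log2 fold change 0.22, adjusted p = 0.0318).

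**Figure D4:**
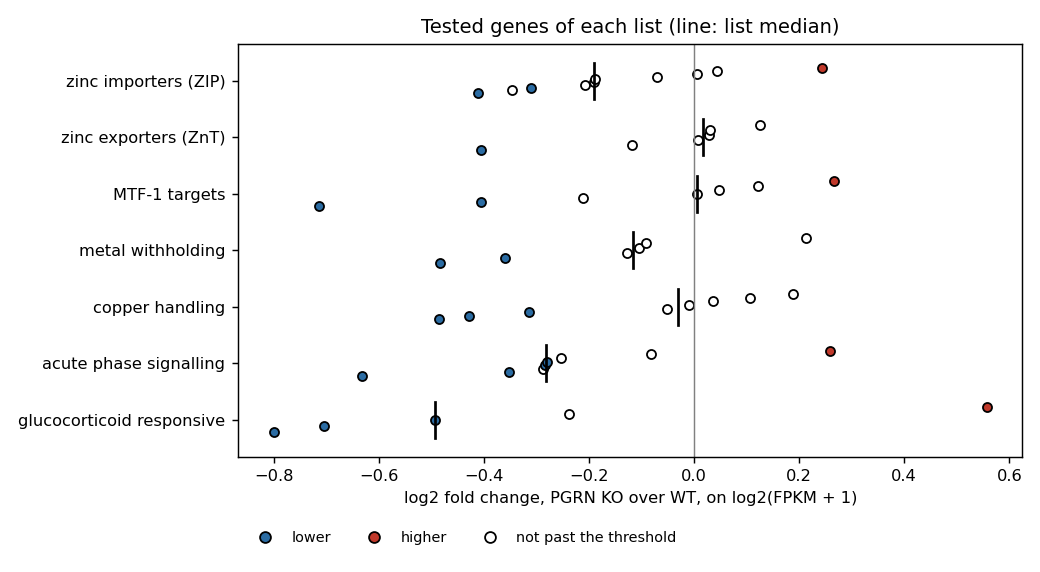
Log2 fold change of PGRN KO over WT on log2(FPKM + 1) for the tested genes of 7 lists, with 1 point a gene and a line at the list median. Points are blue where called lower, red where called higher and open where not past the threshold, and the medians run from -0.49 for glucocorticoid responsive genes to 0.017 for zinc exporters with the scaling as deposited.

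The genes whose levels followed Mt1 and Slc39a14 most closely were read as a description over the 6 libraries, which share their scaling. Tes (Pearson r = 0.99), Inafm2 (0.989) and Fam20b (0.975) were the most like Mt1 of 5135 genes averaging 5 FPKM or more, and 34 of these had r above 0.9. For Slc39a14 the closest were Bcl2a1b (0.995), Vapa (0.99) and Sirt2 (0.987), with 671 of 5136 genes above that r. Bcl2a1b has near-identical copies, and its counts may be split among them. For Mt2, listed at 0, no such genes can be given.

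**Figure D5:**
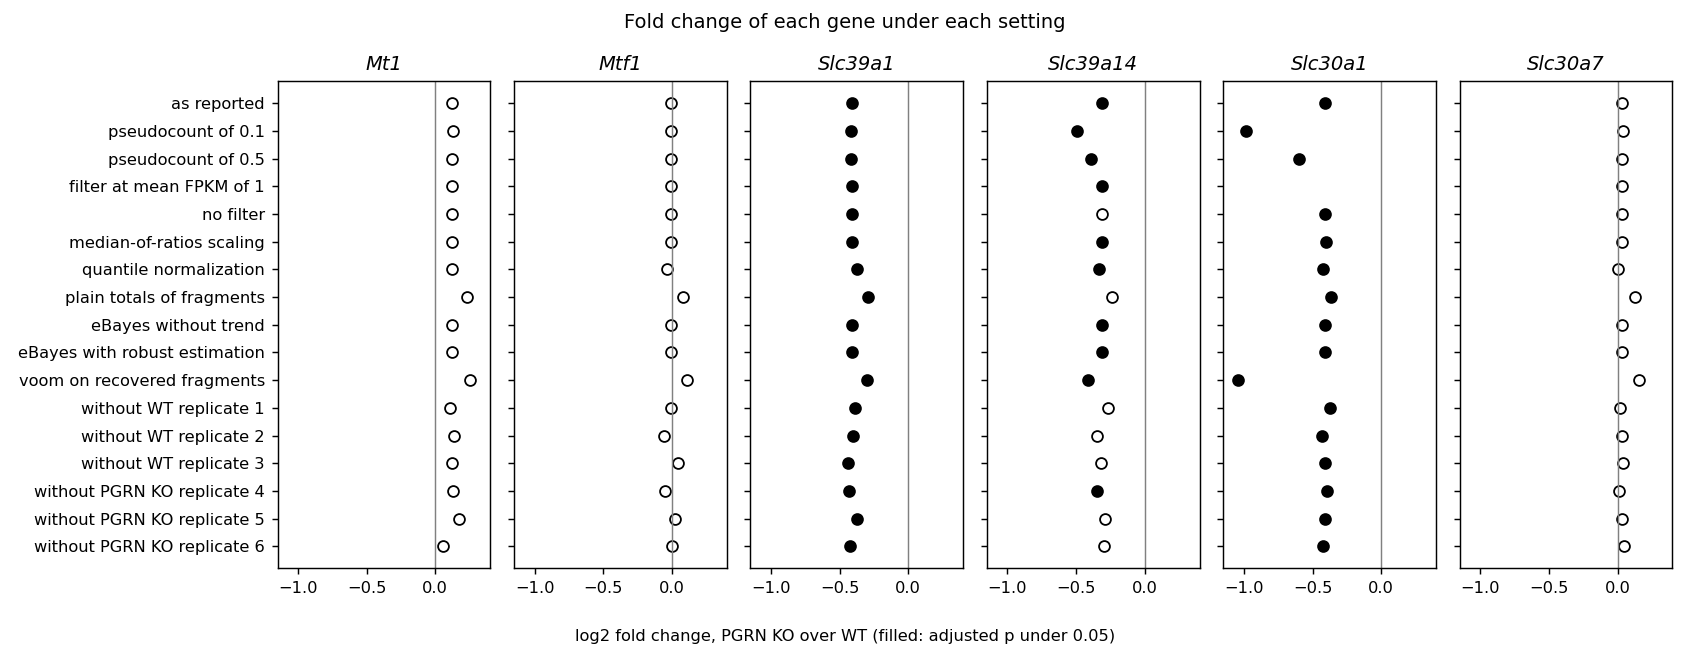
Log2 fold change of PGRN KO over WT for the 6 tested members as reported, under 10 other settings and with each library left out, filled where the adjusted p was under 0.05. Slc39a1 is filled throughout, Slc30a1 wherever it was tested, Slc39a14 in part, and Mt1, Mtf1 and Slc30a7 nowhere.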

How the data were processed

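RNA sequencing libraries of 6 neutrophil cultures were used, 3 WT and 3 PGRN KO, grouped by their sample titles. The authors removed adapter and low-quality reads and mapped the rest with HISAT. The deposited values are FPKM for 54532 genes. For the counting step the paper names HTSeq and the submitters' processing notes name featureCounts 1.5.0-p3, with the builds mm10 and GRCm38. The paper and the labels also differ in the infection ratio. Of 54495 gene identifiers shared with GENCODE M21, 53585 had the same start and end, and 53411 had the same summed exon length.

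FPKM multiplied by gene length gave whole fragments within 0.05 for 100% of values above 0. Genotypes were compared on log2(FPKM + 1), leaving out genes averaging under 0.1 FPKM, with limma 3.58.1 (lmFit, eBayes with trend) in R 4.3.3. P-values are two-sided and were adjusted by Benjamini-Hochberg across the 14807 genes. In simulated data for this comparison, run on 14802 genes, the fit called 138 of 200 changed genes. Of the 125 changed genes averaging at least 1 FPKM it called 119, and Slc30a1 lies below that level. Of its 150 calls, 12 were false. The simulation gave all genes the same relative spread and the genotypes no difference in scaling. How often the fit calls genes with fold changes as small as those of the members was not tested. Python 3.11.15 was used for the rest.

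Alternatives were 2 pseudocounts, 2 filters, 3 scalings, 2 forms of eBayes, voom on recovered fragments and each library left out. The members and lists were chosen with earlier results of these data known. Named were all members, list genes past the threshold with up to 2 others, genes starting within 200 kb of Mt1, the 3 genes most like Mt1 and Slc39a14, and Grn. Some further family and list genes were named after their values were seen.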

Additional observations from a re-analysis of the deposited data

How the results depend on the processing

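The calls of Slc39a1 and Slc30a1 kept their direction and their side of the threshold under every alternative that tested them, and Slc30a1 was not tested at a mean FPKM of 1. Of the members, 3 were called as reported and 2 to 3 under the alternatives. With 1 library left out the number was also 2 to 3, and that of called zinc transporter genes was 2 to 3 against 4. That number was 2 without WT replicate 1, 2 or 3 or PGRN KO replicate 5. Over all genes, voom called 4236 against 2648, and leaving out 1 library gave 1385 (without PGRN KO replicate 5) to 2229, with 1456, 1682 and 1749 without WT replicate 2, 1 and 3. The log2 fold change of Mtf1 turned to 0.080 with plain totals of fragments and to 0.11 with voom, and lay between -0.055 and 0.042 with 1 library left out, where it was above 0 without WT replicate 3, PGRN KO replicate 5 or PGRN KO replicate 6. The cause was not tested. Fewer samples enter the fits that leave out a library. No paired analysis was possible because the genotypes share no replicate number. Slc30a1, from 30 to 77 fragments a library, is the member whose value depth limits most.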

Other observations

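Signals that raise metallothioneins and Slc39a14 in other tissues include interleukin 6 and glucocorticoids, and both lists of such genes were measured. Of 8 acute phase signalling genes, 4 were called lower and 1 higher in PGRN KO, with a median log2 fold change of -0.28. Beside this, 9.95% of all tested genes were called lower and 7.94% higher. Stat3, the transcription factor that interleukin 6 activates, fell from 37.2 ± 0.697 to 29.0 ± 1.53 FPKM (SD, n = 3 each, log2 fold change -0.35, adjusted p = 0.00561). Socs3, a feedback inhibitor that Stat3 induces, fell from 196.3 ± 8.64 to 128.5 ± 31.4 FPKM (log2 fold change -0.63, adjusted p = 0.0332), a call kept in 1 of the 6 fits without 1 library. The receptor chains Il6ra and Il6st had log2 fold changes of -0.28 each (adjusted p = 0.0397 and 0.0462), and both calls were lost whichever of the 6 libraries was left out. Their mean levels in WT were 4.98 and 0.895 FPKM, and with a pseudocount of 0.1 their fold changes differed, at -0.34 and -0.60. Cebpd, an acute phase transcription factor, rose from 31.5 ± 2.33 to 37.8 ± 0.984 FPKM (log2 fold change 0.26, adjusted p = 0.031), a call also lost in all 6. With plain totals of fragments 1 gene of this list was called lower and 1 higher. Il6 itself was at 2.72 ± 0.495 and 2.13 ± 0.539 FPKM (adjusted p = 0.296).

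Glucocorticoid responsive genes moved in both directions. Of 6 genes 5 were tested, with 3 called lower and 1 higher, beside 9.95% and 7.94% of all tested genes. Dusp1, a phosphatase of MAP kinases, fell from 719.3 ± 15.6 to 412.7 ± 20.5 FPKM (SD, n = 3 each, log2 fold change -0.80, adjusted p = 0.000294). Sgk1, a kinase of ion transport, and the clock gene Per1 were called lower with log2 fold changes of -0.70 and -0.49, the call of Per1 in 2 of the 6 fits without 1 library. Tsc22d3, which encodes the glucocorticoid-induced leucine zipper, rose from 9.84 ± 0.327 to 15.0 ± 1.00 FPKM (log2 fold change 0.56, adjusted p = 0.00219). The relation of either list to Mt1 or Slc39a14 was not tested.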
